A study of Homo sapiens with 4 samples.

Results

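RGS proteins are regulators of G-protein signalling, and the 10 genes RGS1, RGS2, RGS3, RGS9, RGS10, RGS12, RGS14, RGS16, RGS18 and RGS19 were followed here across 4 human leukaemia cell lines. They were taken by gene symbol from 21 RGS genes on the array, among 18377 genes with a single symbol, and each was measured by 1 probe set. RGS9 was chosen by its measured difference between the 2 groups of lines, so that difference is given as a description with no test. Total RNA of each line was hybridised to 1 Affymetrix whole-transcript array, and all values below are log2 expression values made by the submitters. RS4;11 and SEM are B-cell precursor acute lymphoblastic leukaemia (ALL) lines with the translocation t(4;11), which fuses KMT2A (MLL) to AFF1, and are named translocation lines below. The comparison group, NALM6 and REH, consists of B-cell precursor ALL lines without t(4;11). As background, REH carries ETV6-RUNX1 and NALM6 a DUX4 rearrangement. All lines were grown to sub-confluency in RPMI with 10% fetal bovine serum, with no other treatment named. The series sets MLL-rearranged cells against cells that lack the rearrangement, each line stands for 1 leukaemia, and every other difference between the 4 lines enters that comparison.

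A G-protein-coupled receptor activates a G protein by making its alpha subunit exchange GDP for GTP, which frees the alpha subunit from the beta-gamma pair. The signal ends when the alpha subunit hydrolyses GTP, and the RGS domain speeds this step, so that RGS proteins shorten and weaken the response. In B cells the best-known receptors of this kind steer migration, such as the chemokine receptor CXCR4 through Gi proteins. The family falls into subfamilies: the small R4 proteins (here RGS1, RGS2, RGS3, RGS16 and RGS18), the R7 proteins that pair with the beta subunit GNB5 (RGS9), the R12 proteins (RGS10, RGS12 and RGS14) and the RZ proteins (RGS19).

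The B-lineage markers PAX5, CD79A and CD22 lay between 11.05 and 12.35 in every line, above the median of all gene values (6.75). That median was exceeded in any line by 0 of 7 T-cell markers and by 2 of 8 monocyte and granulocyte markers, against 55.8% of all genes. These 2 were MPO in REH (7.57) and CSF1R in SEM (7.69). In SEM the precursor B-cell markers DNTT (5.11), BLNK (5.35), CD24 (6.33) and RAG1 (6.33) were below that median, and in REH VPREB1 (5.51) was. The 10 measured precursor B-cell markers were not level across lines, with summed log2 levels of 99.1 in RS4;11 and 81.0 in SEM, against 109.9 in NALM6 and 108.2 in REH. Levels of different genes come from different probes and are not compared with each other. The median of all gene values serves only as a mark of dim and bright signals. A lower level in bulk RNA can come from fewer cells with the transcript or from less of it per cell, and these cannot be told apart. With 2 lines against 2, an exact permutation test of 1 gene cannot give a p below 0.333, so group differences were tested with limma across all genes.

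RGS9 was low in both translocation lines and high in both others, RGS2 was high in SEM alone and RGS16 was graded with its peak in NALM6. The range of RGS9 over the 4 lines, 3.74 log2 units, follows from how it was chosen. Among the other 9 genes, 2 (RGS2 and RGS16) had a range of at least 2 log2 units, a spread that 7.56% of all genes had. RGS1, RGS10 and RGS19 had ranges of 1.79, 1.59 and 1.0, and the remaining RGS12, RGS14, RGS3 and RGS18 ranges of 0.66, 0.26, 0.28 and 0.15. The median range was 1.01 over the 9 genes, 0.32 over the 11 other RGS family genes and 0.38 over all genes. In 6 of the 9 the highest line exceeded the median of all gene values, as it did in 55.8% of all genes. RGS1, RGS3 and RGS18 stayed below that mark in all 4 lines.

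**Figure D1:**
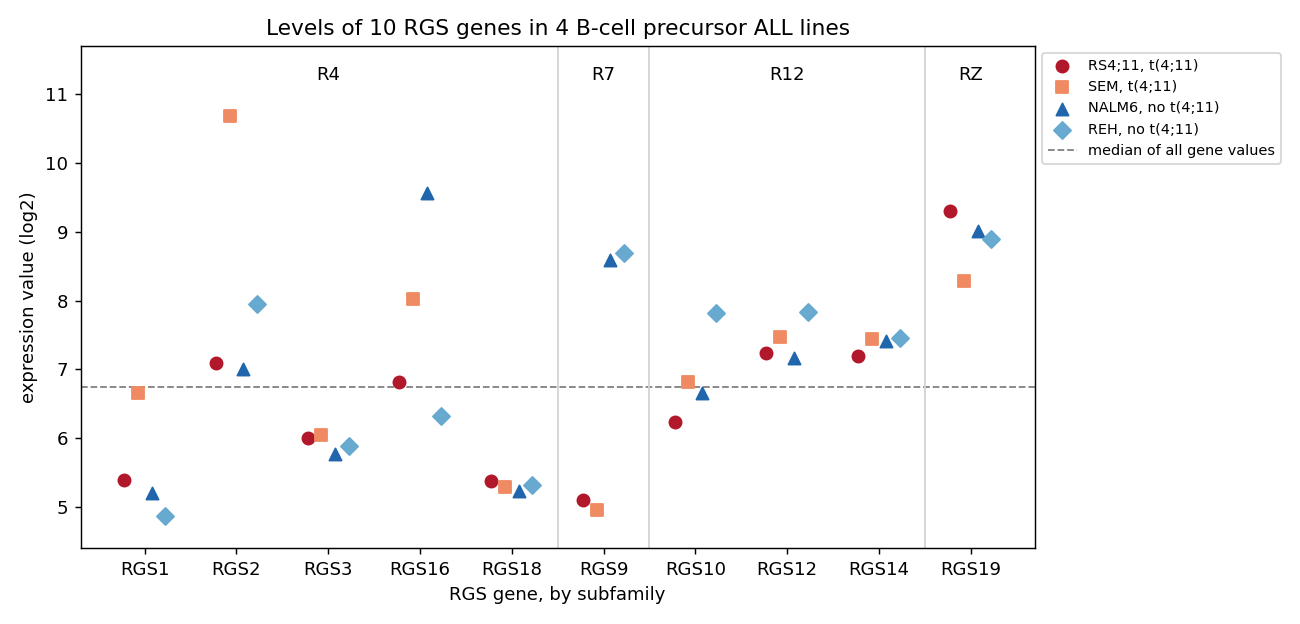
Log2 expression value (vertical axis) of 10 RGS genes, ordered by subfamily, in the 4 lines. Each point is 1 array, red shades mark lines with t(4;11), blue shades lines without it, and the dashed line is the median of all gene values (6.75). RGS9 separates red from blue, while RGS2 is highest in SEM (10.68) and RGS16 in NALM6 (9.57).

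RGS9 was not tested, and none of the other 9 members passed the test between the groups. At an adjusted p under 0.05 limma called 0 of these 9 genes, and 0 of 9 also had an unadjusted p under 0.05. Over all genes 0.0218% passed the adjusted threshold and 9.39% had an unadjusted p under 0.05. The differences were above 0 in 4 of the 9 and below 0 in 5. The groups did not overlap in 2 of the 9, RGS1 and RGS3, both higher in the translocation lines, against 42.8% of all genes (23% higher and 19.8% lower). The median log2 difference over the 9 was -0.11, against 0.01 over all genes. The spread of the 9 within the groups was larger than usual, with a median SE of 0.40 against 0.14 over all genes. The 11 other RGS family genes on the array also had a median SE of 0.14. The members were chosen with earlier results of these data known, and the part of that choice in their spread was not tested. The spread of the 9 came from pairs within groups. SEM and RS4;11 were at least 2-fold apart in 4 of the 9 genes (RGS1, RGS2, RGS16 and RGS19), against 6% of all genes. NALM6 and REH were at least 2-fold apart in 2 of the 9, RGS10 and RGS16, against 8.62% of all genes.

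**Figure D2:**
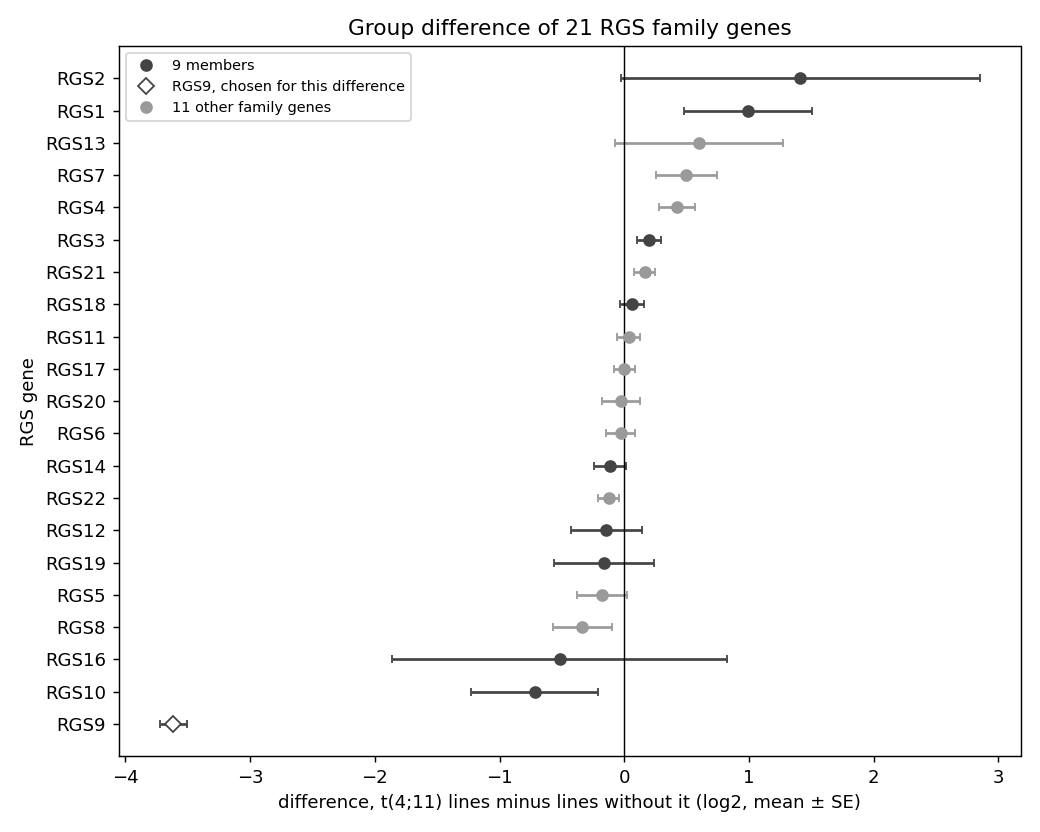
Difference in log2 value between translocation lines and lines without t(4;11) (horizontal axis, mean ± SE of the limma fit, 2 lines each) for 21 RGS family genes. The open diamond is RGS9, which was chosen for this difference (-3.62), so that its bar is no measure of precision. The bars of RGS2 and RGS16 are the widest, with SEs of 1.44 and 1.34.

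RGS9 is the R7 protein that ends the light response in retinal rods and cones, and its long form acts in dopamine-responsive neurons of the striatum. Its level was 5.10 in RS4;11 and 4.96 in SEM, against 8.59 in NALM6 and 8.70 in REH. The 2 translocation lines were thus low, both others were high, and the groups stood 3.49 log2 units apart at their nearest values. The difference was -3.62 (SE 0.11), a 12.3-fold gap on the scale of the deposited values, and it is the value by which RGS9 was chosen. Because of that choice, the SE is no measure of precision here. Over all genes 0.876% lay at least 1 log2 unit lower in both translocation lines than in both others, a share printed only for scale. Both values of the translocation lines were below the median of all gene values, and with no detection calls that fold is not a measured ratio of transcripts. Of the 10 measured precursor B-cell markers, the groups did not overlap in 6, all with lower values in the translocation lines, against 42.8% of all genes. The largest log2 differences were those of DNTT (-5.99), BLNK (-4.95), CD24 (-3.92) and CD79B (-2.14), while CD79A, PAX5, IGLL1 and VPREB1 had overlapping groups and VPREB1 differed by 1.28. The part of these markers in the RGS9 difference was not tested.

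The stretch of 250 bases before the RefSeq start of RGS9 is shown because this gene carries the group difference. It lies at chr17:65137120-65137369 on the plus strand of GRCh38.p14, is 71.6% G and C, and is printed 5′ to 3′ with matches to the searched motifs in capitals.
RGS9: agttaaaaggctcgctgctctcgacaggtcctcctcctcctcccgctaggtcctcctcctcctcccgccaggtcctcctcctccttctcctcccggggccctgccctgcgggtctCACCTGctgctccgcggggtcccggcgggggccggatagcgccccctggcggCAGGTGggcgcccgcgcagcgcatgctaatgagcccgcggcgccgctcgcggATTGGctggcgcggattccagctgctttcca
The capitals mark 2 matches to the E-box CAGGTG, 1 on each strand, and 1 CCAAT box on the opposite strand, 27 to 31 bases before the start. Of 35116 RefSeq promoter windows of the same length, 17.5% hold that E-box and 32.0% a CCAAT box. The array gives no measure of promoter activity or binding, so that these matches are a description of the sequence.

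The partners that RGS9 needs did not follow its pattern. GNB5, the beta subunit that stabilises R7 proteins, was at 6.87 in RS4;11 and 7.15 in SEM, against 6.97 in NALM6 and 7.10 in REH. Its groups overlapped, and the log2 difference was -0.03 (SE 0.15, limma adjusted p = 0.963). The membrane anchors RGS9BP and RGS7BP were dim in every line, RGS9BP between 4.44 and 4.76 and RGS7BP between 4.46 and 4.69. The other R7 genes did not show the RGS9 split either. RGS6 lay between 4.62 and 4.83 and RGS11 between 4.77 and 4.87. RGS7 was at 4.70 in RS4;11 and 5.29 in SEM, against 4.54 in NALM6 and 4.46 in REH, so that its values were higher with the translocation (log2 difference 0.50, SE 0.25, limma adjusted p = 0.663).

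In RefSeq gene order RGS9 lies between GNA13 and AXIN2, both of which belong to the same field of biology. GNA13 encodes the G12/13-class alpha subunit that restrains germinal centre B cells, and AXIN2 is a Wnt pathway scaffold that itself has an RGS domain. GNA13 was at 10.45 in RS4;11 and 10.30 in SEM, against 10.77 in NALM6 and 11.58 in REH. AXIN2 was at 6.55 in RS4;11 and 6.72 in SEM, against 7.08 in NALM6 and 7.31 in REH. The groups did not overlap in either gene, and both were lower in the translocation lines, as RGS9 was. Over all genes the groups did not overlap in 42.8%, with 19.8% lower in the translocation lines. The differences of GNA13 and AXIN2 were smaller than that of RGS9 and did not pass limma. They were -0.80 for GNA13 (SE 0.33, adjusted p = 0.608) and -0.56 for AXIN2 (SE 0.14, adjusted p = 0.453). Farther out the pattern was not seen: SMURF2 was 0.36 higher in the translocation lines and CEP112 was highest in REH (8.10) and lowest in NALM6 (5.47).

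RGS2 limits Gq signalling in particular and is induced by many stimuli. Its level was 7.09 in RS4;11 and 10.68 in SEM, against 7.0 in NALM6 and 7.95 in REH. SEM alone was high, and RS4;11 lay inside the range of the lines without the translocation. SEM exceeded RS4;11 by 3.58 log2 units (12-fold) and the next highest line, REH, by 2.73 (6.63-fold). The group difference of 1.41 had an SE of 1.44 (limma adjusted p = 0.785), and without SEM it was -0.38. A 2-fold lead of SEM over each other line was seen in 1.64% of all genes, and among the members in RGS2 and RGS1.

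RGS1 restrains the response of B cells to chemokines. It was at 5.39 in RS4;11 and 6.66 in SEM, against 5.20 in NALM6 and 4.87 in REH. The groups did not overlap, but RS4;11 was only 0.19 above NALM6, while SEM was 1.27 above RS4;11. The difference of 0.99 (SE 0.51) did not pass limma (adjusted p = 0.680), and it was 0.36 without SEM and 1.63 without RS4;11.

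RGS1 and RGS2 belong to a run of 5 RGS genes on chromosome 1 that follow one another among protein-coding genes in the order RGS18, RGS21, RGS1, RGS13 and RGS2. RGS13, which is known from germinal centre B cells and mast cells, lies between RGS1 and RGS2 and was at 6.21 in RS4;11 and 7.76 in SEM, against 6.0 in NALM6 and 6.77 in REH. SEM was thus the highest line for 3 adjacent genes, by 1.27 for RGS1, 0.99 for RGS13 and 2.73 for RGS2 over the next line. Over all genes SEM was the highest line in 22.9%. The other end of the run was flat and dim. RGS18, known from platelets, megakaryocytes and blood progenitors, lay at 5.38 in RS4;11 and 5.30 in SEM, against 5.23 in NALM6 and 5.32 in REH. Its groups overlapped (log2 difference 0.06, SE 0.10, limma adjusted p = 0.865), and 7 megakaryocyte and platelet markers lay between 4.56 and 6.67 in all lines. RGS21, known from taste cells, lay between 4.48 and 4.66. Beyond RGS2 the next gene, UCHL5, was at 9.91 in RS4;11 and 10.01 in SEM, against 9.91 in NALM6 and 9.18 in REH, so that SEM and the next lines were close there.

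The windows before RGS1, RGS13 and RGS2 are shown since these adjacent genes were all highest in SEM. They are 250 bases each on the plus strand of GRCh38.p14, at chr1:192575523-192575772, chr1:192635897-192636146 and chr1:192808789-192809038, with motif matches in capitals.
RGS1: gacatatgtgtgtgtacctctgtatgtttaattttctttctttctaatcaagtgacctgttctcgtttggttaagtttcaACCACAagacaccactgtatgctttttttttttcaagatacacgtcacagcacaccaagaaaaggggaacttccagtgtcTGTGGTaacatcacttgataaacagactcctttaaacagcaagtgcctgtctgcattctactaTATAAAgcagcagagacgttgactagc
RGS13: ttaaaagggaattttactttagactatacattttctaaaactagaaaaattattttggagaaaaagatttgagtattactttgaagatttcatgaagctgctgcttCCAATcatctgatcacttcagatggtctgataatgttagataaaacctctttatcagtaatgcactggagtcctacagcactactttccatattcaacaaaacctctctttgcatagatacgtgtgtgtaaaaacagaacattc
RGS2: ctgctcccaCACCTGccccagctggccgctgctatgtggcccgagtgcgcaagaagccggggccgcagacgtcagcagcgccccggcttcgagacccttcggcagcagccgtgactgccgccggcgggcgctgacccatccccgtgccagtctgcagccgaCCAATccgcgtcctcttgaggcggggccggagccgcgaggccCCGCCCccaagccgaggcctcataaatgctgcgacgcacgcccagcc
The windows differ in make-up, with 39.2% G and C before RGS1, 32.0% before RGS13 and 72.8% before RGS2. That of RGS1 holds a TATA box (TATAAA, 22 to 27 bases before the start) and a RUNX motif (TGTGGT) on each strand. That of RGS13 holds 1 CCAAT box, and that of RGS2 a CCAAT box, a GC box (GGGCGG, opposite strand) and a CAGGTG E-box on the opposite strand. A TATA box was in 10.7% of all windows, the RUNX motif in 11.0% and the GC box in 42.6%. Also searched, on both strands as the others, were the cAMP response element TGACGTCA (1.65% of windows), the AP-1 motif TGANTCA (6.57%), an NF-kappaB motif (1.73%) and an ETS motif CCGGAAGT (3.42%). Matches could overlap, and no motif was shared by the 3 windows.

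RGS16, an R4 protein that acts on Gi and Gq alpha subunits, varied widely between lines, and its groups overlapped. It was at 6.82 in RS4;11 and 8.02 in SEM, against 9.57 in NALM6 and 6.31 in REH. The 2 lines without the translocation were the highest and the lowest of the 4, and NALM6 exceeded REH by 3.25 log2 units (9.52-fold). NALM6 led the next line, SEM, by 1.54, and 1.19% of all genes were at least 2-fold higher in NALM6 than in each other line. The group difference was -0.52 (SE 1.34, limma adjusted p = 0.925), with 0.08 without RS4;11 and 1.11 without NALM6. Its neighbours RGS8 and NPL were also highest in NALM6, but both were below the median of all gene values in every line. The share of all genes highest in NALM6 is not given, so this is a description. RGS8, a neuronal R4 gene, was at 4.91 in RS4;11 and 4.94 in SEM, against 5.54 in NALM6 and 4.97 in REH, and NPL, a sialic acid lyase gene, at 5.03 in RS4;11 and 5.76 in SEM, against 6.65 in NALM6 and 5.34 in REH. RGSL1, on the other side, lay between 4.53 and 4.68 and was also highest in NALM6. The 250 bases before RGS16, shown for the member with the widest spread within the group without the translocation, lie at chr1:182604390-182604639 on the minus strand of GRCh38.p14.
RGS16: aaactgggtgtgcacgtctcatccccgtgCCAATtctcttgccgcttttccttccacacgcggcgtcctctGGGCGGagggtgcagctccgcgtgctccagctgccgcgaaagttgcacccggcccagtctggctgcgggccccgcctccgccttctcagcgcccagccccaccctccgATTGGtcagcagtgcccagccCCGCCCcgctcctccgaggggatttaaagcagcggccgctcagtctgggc
In the RGS16 window the capitals mark 2 CCAAT boxes and 2 GC boxes, 1 of each on either strand.

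**Figure D3:**
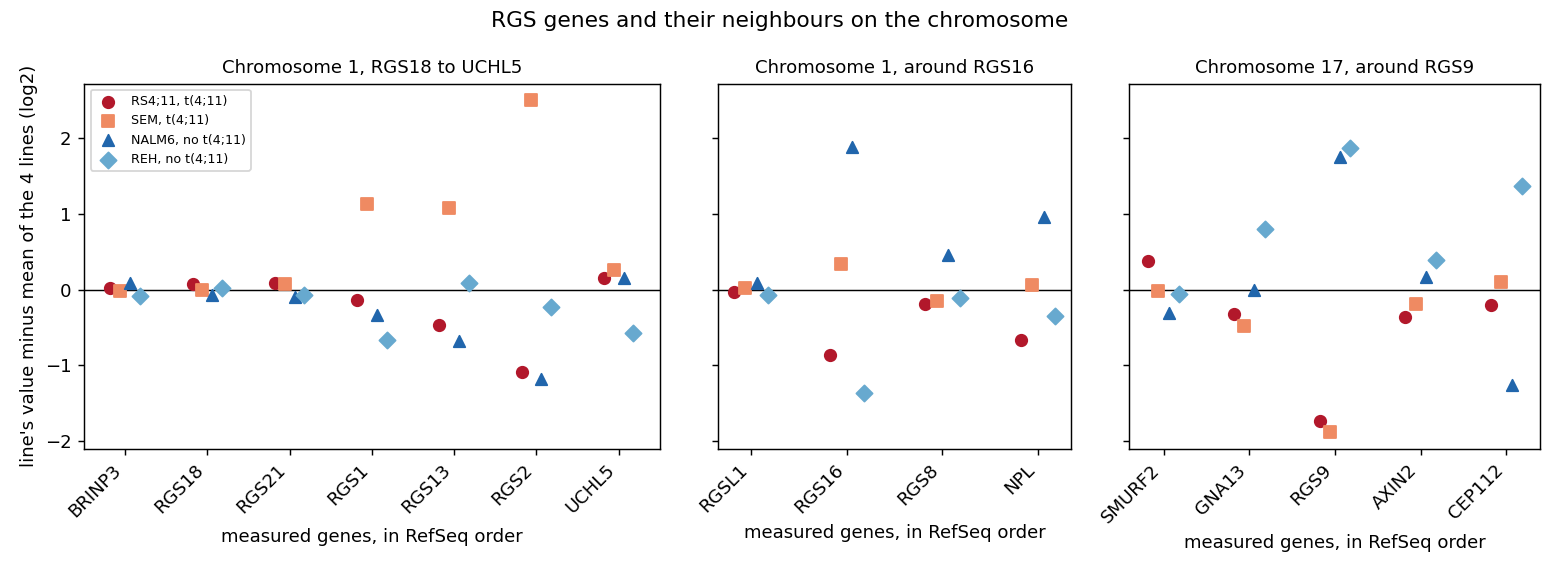
Value of each line minus the mean of the 4 lines (vertical axis, log2) for RGS genes and measured neighbours in RefSeq gene order, with 1 array per point. SEM lies above the other lines at RGS1, RGS13 and RGS2 but not at RGS18 or RGS21. NALM6 lies highest at RGS16, RGS8 and NPL, and also at RGSL1 within a narrow range. Both translocation lines lie lowest at GNA13, RGS9 and AXIN2.

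RGS3, which can inhibit Gi and Gq signalling, had a small range. It was at 6.01 in RS4;11 and 6.05 in SEM, against 5.77 in NALM6 and 5.89 in REH. The groups did not overlap, with a gap of 0.12, and the difference of 0.20 (SE 0.10) did not pass limma (adjusted p = 0.653).

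The R12 genes varied less than the R4 genes RGS2 and RGS16. RGS10 and RGS12 varied more than the R4 genes RGS3 and RGS18, so the subfamilies are not ordered by range. RGS10, a small protein with little beyond the RGS domain that is abundant in leukocytes, was at 6.23 in RS4;11 and 6.81 in SEM, against 6.66 in NALM6 and 7.82 in REH. REH stood 2.01-fold above the next line, SEM, and the groups overlapped, while 2.19% of all genes were at least 2-fold higher in REH than in each other line. The difference was -0.72 (SE 0.51, limma adjusted p = 0.740), and it was -0.14 without REH, -1.30 without NALM6, -1.01 without SEM and -0.43 without RS4;11. GRK5, the receptor kinase gene next to RGS10, was likewise highest in REH, at 5.56 in RS4;11 and 5.64 in SEM, against 6.0 in NALM6 and 7.49 in REH. TIAL1, on the other side of RGS10, lay between 9.62 and 9.98.

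RGS12 and RGS14 are scaffold proteins that join an RGS domain to Ras-binding domains and to a GoLoco motif, which holds Gi alpha subunits in the GDP-bound state. RGS12 was at 7.23 in RS4;11 and 7.48 in SEM, against 7.17 in NALM6 and 7.83 in REH. Its groups overlapped (log2 difference -0.15, SE 0.28, limma adjusted p = 0.896), and the sign turned without REH (0.18). RGS14, which is known from lymphocytes and the hippocampus, was at 7.19 in RS4;11 and 7.45 in SEM, against 7.41 in NALM6 and 7.45 in REH. Its difference of -0.11 (SE 0.13, limma adjusted p = 0.812) was 0.02 without RS4;11. The 95% interval of the fit ran from -0.50 to 0.28 for RGS14 and from -1.0 to 0.71 for RGS12, which bounds the difference but does not show equal levels.

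RGS19, also called GAIP, acts on Gi3 and is the RZ member. It was at 9.29 in RS4;11 and 8.29 in SEM, against 9.0 in NALM6 and 8.90 in REH. Every line was above the median of all gene values, and the translocation lines were the highest and the lowest of the 4. SEM was thus high for RGS1 and RGS2 and low for RGS19. The group difference was -0.16 (SE 0.40, limma adjusted p = 0.920) and 0.34 without SEM. OPRL1, the nociceptin receptor gene that follows RGS19 in RefSeq order, was at 5.45 in RS4;11 and 5.34 in SEM, against 5.63 in NALM6 and 6.60 in REH. TCEA2, on the other side, was at 7.89 in RS4;11 and 7.06 in SEM, against 8.94 in NALM6 and 9.33 in REH. The groups of TCEA2 did not overlap, as in 42.8% of all genes (log2 difference -1.66, SE 0.37, limma adjusted p = 0.421). SEM was the lowest line for RGS19 and both neighbours, but RGS19 was highest in RS4;11 and the neighbours in REH. The other RZ genes were dim and flat: RGS17 lay between 5.5 and 5.55 and RGS20 between 4.78 and 5.09.

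Of the 11 RGS family genes outside the 10, only RGS13 exceeded the median of all gene values in any line. Limma called 0 of 11, 0 of 11 had an unadjusted p under 0.05, and the groups did not overlap in 5 (3 above and 2 below in RS4;11 and SEM), against 42.8% of all genes without overlap and 9.39% at that unadjusted p. Their median difference was 0.00. RGS4, a neuronal R4 gene, was at 5.33 in RS4;11 and 5.61 in SEM, against 5.0 in NALM6 and 5.10 in REH (log2 difference 0.42, SE 0.14, limma adjusted p = 0.535).

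The genes whose values ran most like those of the 3 variable members over the 4 lines were named by the root mean square difference between profiles centred on their own mean. With 4 points this is a description only. Nearest to RGS2 were MELTF, KCNK3 and RASAL2, at 0.24, 0.28 and 0.28 log2 units. RASAL2, a Ras GTPase-activating protein gene, was at 4.76 in RS4;11 and 8.5 in SEM, against 4.87 in NALM6 and 5.11 in REH. Nearest to RGS9 were CRYBG1, NYNRIN and ZNF827, at 0.18, 0.18 and 0.19. NYNRIN was at 5.14 in RS4;11 and 5.08 in SEM, against 8.75 in NALM6 and 8.39 in REH. Nearest to RGS16 were ENPP2, TLE4 and FOXP2, at 0.11, 0.14 and 0.25. ENPP2 encodes autotaxin, which makes the receptor ligand lysophosphatidic acid, and was at 5.12 in RS4;11 and 6.16 in SEM, against 7.98 in NALM6 and 4.70 in REH.

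**Figure D4:**
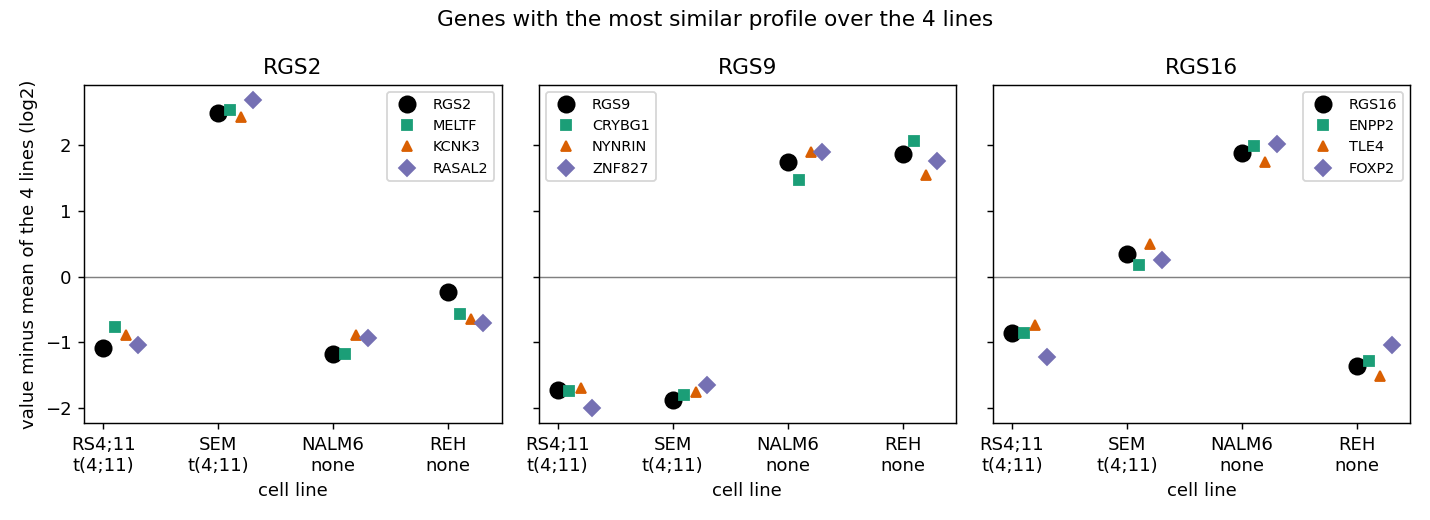
Value minus the mean of the 4 lines (vertical axis, log2) in each line for RGS2, RGS9 and RGS16 (black circles) and the 3 genes nearest to each. RGS2 and its 3 nearest genes are high in SEM, those at RGS9 are low in RS4;11 and SEM, and those at RGS16 descend from NALM6 over SEM and RS4;11 to REH, except FOXP2, whose RS4;11 value lies below REH.

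Among the alpha subunits on which RGS proteins act, 10 of 15 measured genes exceeded the median of all gene values in at least 1 line. Limma called 0 of the 15. The groups did not overlap in 6 and 0 had an unadjusted p under 0.05, against 42.8% and 9.39% of all genes. GNAI2, the main Gi subunit of lymphocytes, was at 11.20 in RS4;11 and 11.12 in SEM, against 11.25 in NALM6 and 10.80 in REH. GNAQ, a target of RGS2, was at 10.66 in RS4;11 and 12.03 in SEM, against 9.72 in NALM6 and 10.59 in REH, so that SEM was highest for both genes (log2 group difference for GNAQ 1.19, SE 0.63, limma adjusted p = 0.686). GNA11, the close relative of GNAQ, had the opposite order of groups, at 6.69 in RS4;11 and 7.26 in SEM, against 7.53 in NALM6 and 8.75 in REH (difference -1.17, SE 0.53, limma adjusted p = 0.631). GNAS, the Gs gene, lay between 10.37 and 10.74.

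Among 15 beta and gamma subunit genes limma called 0. The groups did not overlap in 4 and 1 had an unadjusted p under 0.05, against 42.8% and 9.39% of all genes. That gene was GNG7, at 10.18 in RS4;11 and 9.40 in SEM, against 10.70 in NALM6 and 11.32 in REH (log2 difference -1.22, SE 0.40, adjusted p = 0.525). GNG2 differed by -1.48 (SE 0.62, limma adjusted p = 0.614). GNB1 and GNG5 were bright and nearly level, GNB1 between 12.44 and 12.58 and GNG5 between 11.98 and 12.24.

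Of 34 measured haematopoietic receptors limma called 0, 5 had an unadjusted p under 0.05 (3 above and 2 below in RS4;11 and SEM) and the groups did not overlap in 11, where all genes gave 9.39% and 42.8%. HTR1F, a Gi-coupled serotonin receptor gene, had the largest difference in the list, at 9.68 in RS4;11 and 10.07 in SEM, against 4.84 in NALM6 and 4.64 in REH (log2 difference 5.13, SE 0.19, limma adjusted p = 0.0587), opposite in direction to RGS9. LPAR4, a lysophosphatidic acid receptor gene, was at 7.91 in RS4;11 and 8.97 in SEM, against 5.5 in NALM6 and 6.20 in REH (limma adjusted p = 0.370), and PTGER4, a prostaglandin E2 receptor gene, differed by 2.12 (SE 0.50, limma adjusted p = 0.431). The 2 lower receptors at an unadjusted p under 0.05 were S1PR4 and P2RY10. Their log2 differences were -0.76 for S1PR4 (SE 0.14, limma adjusted p = 0.353) and -0.76 for P2RY10 (SE 0.22, limma adjusted p = 0.500). CXCR4 was at 10.71 in RS4;11 and 9.54 in SEM, against 11.82 in NALM6 and 11.39 in REH. Its difference of -1.48 (SE 0.49) did not pass limma (adjusted p = 0.532). SEM was the lowest line for CXCR4 and the highest for RGS1.

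Receptor kinases and arrestins, the other brake on these receptors, had groups that did not overlap in 7 of 10 measured genes, 6 of them lower in the translocation lines. Among all genes 42.8% did not overlap, 19.8% on the lower side. Limma called 0 of the 10, and 1 (GRK3) had an unadjusted p under 0.05 (9.39% of all genes), with a list median of -0.21. ARRB1, an arrestin gene, was at 9.45 in RS4;11 and 7.02 in SEM, against 10.71 in NALM6 and 10.11 in REH (log2 difference -2.17, SE 0.97, limma adjusted p = 0.631). GRK3 was at 9.18 in RS4;11 and 9.16 in SEM, against 10.35 in NALM6 and 9.67 in REH (limma adjusted p = 0.530). Among 8 other regulators of alpha subunits the groups did not overlap in 6, 5 of them lower, limma called 0, and 2 had an unadjusted p under 0.05. These were GPSM2, with a log2 difference of -0.81 (SE 0.24, adjusted p = 0.501), and CCDC88C, with -0.56 (SE 0.19, adjusted p = 0.532).

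The remaining lists held the RGS-like and effector genes. Of 15 genes with an RGS or related domain or an adaptor role, limma called 0, 2 (SNX13 and AXIN2) had an unadjusted p under 0.05 and the groups did not overlap in 6, shares near the 9.39% and 42.8% of all genes. SNX13 was at 8.18 in RS4;11 and 8.11 in SEM, against 8.97 in NALM6 and 9.20 in REH (limma adjusted p = 0.284). Of 13 adenylate cyclase and phospholipase C beta genes limma called 0, with 0 at an unadjusted p under 0.05, and the groups did not overlap in 4, where all genes gave 9.39% and 42.8%. PLCB1, an effector of Gq, was at 11.47 in RS4;11 and 6.12 in SEM, against 9.90 in NALM6 and 8.88 in REH. SEM was thus lowest for PLCB1 where it was highest for RGS2.

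**Figure D5:**
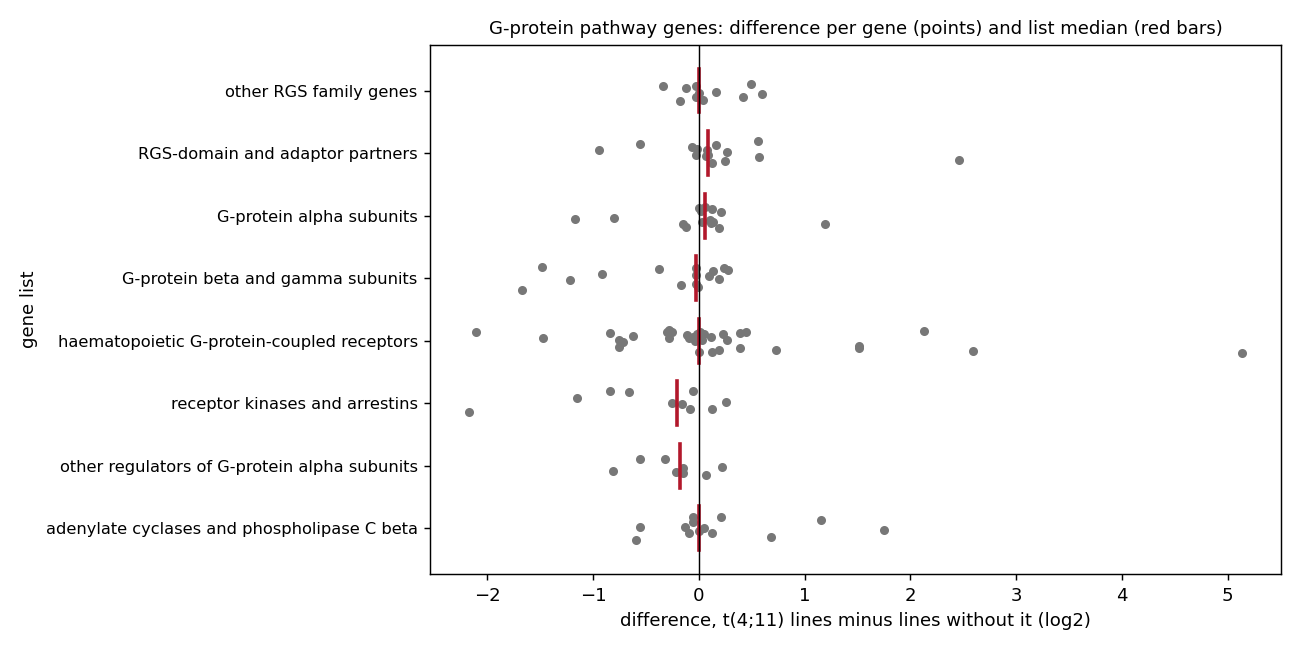
Difference in log2 value between translocation lines and lines without t(4;11) (horizontal axis) for each measured gene of 8 lists (points, 2 lines per group), with the list median as a red bar. The medians lie between -0.21 and 0.09, and the point farthest right is HTR1F (5.13).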

How the data were processed

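Total RNA of 4 cell lines was measured on 1 Affymetrix whole-transcript array each. The deposited log2 values per probe set come from RMA and Partek, per the submitters' processing notes, and no version or role is given for either. The log2 scale was inferred from values of 3.44 to 14.3. The values carry no detection calls, and precision is limited by the number of arrays. Of 32968 probe sets, 19310 had 1 gene symbol, 1752 several and 11906 none listed. By Entrez ID 19279 matched RefSeq (GRCh38.p14), and 0 symbols changed. A gene with several probe sets (685) kept the one with the highest mean.

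Groups follow the labels, and each replicate is a cell line. Limma 3.58.1 in R 4.3.3 (lmFit, eBayes, 2 residual and 1.34 prior degrees of freedom, Benjamini-Hochberg adjustment over 18377 genes, threshold 0.05, two-sided) tested translocation lines against the others. In 10 simulations of this comparison with 18377 genes, a fixed number of genes was changed and the variances were shuffled across genes. Limma called 9.6%, 51.4%, 66.6% and 82.2% of genes changed 2-, 4-, 8- and 64-fold, with 5.4 unchanged genes called per simulation. These shares depend on those settings and are not the power for any 1 member. Promoter windows come from RefSeq. The members and the gene lists were chosen with earlier results of these data known. The text names all members and draws its other genes, not all of those that qualify, from these: in each list the 3 genes with the highest mean and up to 4 with the largest difference among those without overlap, the 3 genes nearest in profile to members with a range of at least 2, and neighbours in RefSeq order. Which of these are named was decided with their values seen. GNB5, IGLL1, RAG1, VPREB1, RGS9BP, RGS7BP, RGS6, RGS11, RGS20, S1PR4 and P2RY10 fall outside this rule and were singled out after their values were seen. Alternatives were repeated quantile normalization, median centring, the mean of probe sets, removal of dim genes, other eBayes settings, another threshold and leaving out each line. Plots were made with Python 3.11.15 and matplotlib 3.10.9.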

Additional observations from a re-analysis of the deposited data

How the results depend on the processing

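None of the 9 tested members passed limma under any scaling, filter or eBayes setting tried with all 4 lines. Their limma adjusted p-values in these settings lay at or above 0.649. Without moderation limma called 0 of all genes, so that setting is no evidence about the members. Fits without 1 line leave 1 line in a group, and only the members' differences are given for them. RGS1, RGS3 and RGS18 were removed with the dim genes and have no value there. The RGS9 difference, by which that gene was chosen, lay between -3.69 and -3.55 without single lines. Because of that choice, this narrow range is a description and no support for the difference. Some signs turned when a line was left out: RGS2 was -0.38 without SEM, RGS12 0.18 without REH, RGS14 0.02 without RS4;11, RGS16 0.08 without RS4;11 and 1.11 without NALM6, and RGS19 0.34 without SEM. Without single lines the ranges were 0.36 to 1.63 for RGS1, -0.38 to 3.20 for RGS2, -1.30 to -0.14 for RGS10, -0.48 to 0.18 for RGS12, -0.24 to 0.02 for RGS14, -2.14 to 1.11 for RGS16 and -0.67 to 0.34 for RGS19. The cause was not tested.

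Over all genes limma called 4, but 28 with centred arrays, 17 without dim genes, 0 without moderation (1424 at an unadjusted p under 0.05) and 42 at an adjusted p under 0.1. It called 0 without each line in turn (1254 to 2585 at an unadjusted p under 0.05), where 1 residual degree of freedom was left. HTR1F was the 1 receptor that passed with centred arrays and without dim genes. Fewer genes enter the list medians without dim genes. Of the 11 other RGS genes only RGS13 was left, so the 0.60 found there is the difference of 1 gene. The medians were then 0.21 for RGS-domain partners, 0.09 for alpha subunits and -0.54 for beta and gamma subunits. They were -0.84 for receptor kinases and arrestins, 0.26 for receptors and -0.06 for cyclases and phospholipases. With centred arrays the alpha subunit median was 0.08. Without single lines the medians ranged from -0.01 to 0.07 for other RGS genes, 0.0086 to 0.11 for alpha subunits, -0.07 to 0.01 for beta and gamma subunits, -0.36 to -0.19 for receptor kinases and arrestins, -0.01 to 0.11 for receptors and -0.0058 to 0.15 for cyclases and phospholipases. No paired analysis was possible because the 4 lines stand for separate leukaemias and are not paired.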
